A study of Homo sapiens with 6 samples.

Results

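ADAM8, ADAM9, ADAM10, ADAM15 and ADAM17 are the 5 most abundant members of the ADAM family of membrane-anchored metalloproteases in K562 cells, a human chronic myeloid leukaemia line that carries the Bcr-Abl fusion. The 5 genes were selected on their level in these libraries, and the rise of ADAM9 after lncRNA-IUR-5 knockdown was already known when the genes were chosen. The levels of all 5 genes and the change of ADAM9 are therefore given as a description, with no test. Their rows were found by RefSeq protein accession, so that each isoform has a row of its own, and 17 of the 109018 rows in the table belonged to the 5 genes. ADAM8 had 3 rows, ADAM9 had 2, ADAM10 had 2, ADAM15 had 9 and ADAM17 had 1.

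RNA-seq was performed on 3 libraries of K562 cells with a short hairpin RNA (shRNA) against lncRNA-IUR-5, named sh-IUR-5, and 3 libraries of K562 cells with an shRNA against luciferase, named sh-luc. The hairpins were delivered stably by lentivirus from the pSIH-H1-GFP vector, no drug was given, and a single hairpin represents the knockdown, so an effect of that hairpin on other transcripts cannot be told apart from the loss of the lncRNA. The GEO labels call the target lncRNA-IIRX, while the study describes the same deposit as its lncRNA-IUR-5 knockdown. The rows are proteins, so the lncRNA itself was not analysed here.

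The libraries held 21023739 to 31481109 reads counted on protein accessions. The scaling factors of the trimmed mean of M values (TMM) ran from 0.929 to 0.942 in sh-luc and from 1.05 to 1.10 in sh-IUR-5, so the groups differed in composition. With scaling to total reads in place of TMM the median log2 fold change over all gene sums moved from 0.01 to 0.21. Markers of the erythroid-like K562 line were abundant, with GATA1 at a mean of 52.1 RPKM, the reads scaled to the row's length in kilobases and to the library's total and KLF1 at 104, whereas the lymphoid and monocyte markers CD3E, CD14 and MS4A1 were at 0.0563, 0.00703 and 0. Of the other genes on the marker list for lymphoid, monocyte and epithelial cells, LYZ (89.0 RPKM), EPCAM (97.5), KRT8 (374) and KRT18 (290.0) were also abundant.

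ADAM proteases are made as inactive proenzymes and lose an inhibitory prodomain in the secretory pathway, in many but not all cases through furin-type convertases. They then cut other membrane proteins close to the cell surface, a process called ectodomain shedding. ADAM10 and ADAM17 are the main sheddases of most cells: ADAM10 makes the first cut in ligand-bound Notch and acts as an alpha-secretase on the amyloid precursor protein, and ADAM17 (TACE) releases tumour necrosis factor and several ligands of the EGF receptor. ADAM9, ADAM15 and ADAM8 have narrower known substrate ranges and carry cytoplasmic tails rich in proline that bind SH3 domains, ADAM15 is the human ADAM with an RGD integrin-binding motif, and ADAM8 is best known from leukocytes.

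The catalytic zinc site is what makes these 5 proteins active proteases, and its coding bases are shown for 4 of them with the codons of the 3 zinc-binding histidines, the catalytic glutamate and the conserved glycine in capitals. The bases were read 5′ to 3′ on the coding strand from the GENCODE release 44 canonical transcript on hg38.
ADAM8 zinc site, chr10:133271880-133271912, minus strand, exon 11 of 23: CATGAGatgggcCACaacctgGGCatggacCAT
ADAM10 zinc site, chr15:58627881-58633225, minus strand, split between exons 9 and 10 of 16: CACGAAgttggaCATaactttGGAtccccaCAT
ADAM15 zinc site, chr1:155056995-155057027, plus strand, exon 11 of 23: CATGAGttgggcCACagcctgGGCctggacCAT
ADAM17 zinc site, chr2:9510078-9510110, minus strand, exon 11 of 19: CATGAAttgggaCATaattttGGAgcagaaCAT
The motif HExxHxxGxxH was found once in each of the 5 translated proteins, and a furin-type motif (R-X-K/R-R) lay before it in all 5. In ADAM15 the RGD codons, in capitals, lie in exon 14.
ADAM15 RGD site, chr1:155057872-155057904, plus strand: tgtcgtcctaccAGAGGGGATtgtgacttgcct
The proteins were 824 (ADAM8), 819 (ADAM9), 748 (ADAM10), 863 (ADAM15) and 824 (ADAM17) residues long. Identity over aligned residues was 37.9% between ADAM8 and ADAM9, 37.7% between ADAM8 and ADAM15, 36.3% between ADAM9 and ADAM15 and 31.5% between ADAM10 and ADAM17, and the other 6 pairs lay from 27.1% to 29.5%.

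The hairpin target, as the study lists it, is shown because it bears on whether the ADAM transcripts could pair with the hairpin.
sh-IUR-5 target: gctagtatcaggtttaaatag
The longest run shared between these 21 bases and any annotated transcript of the gene was 9 bases for ADAM8, 8 for ADAM9, 10 for ADAM10, 7 for ADAM15 and 9 for ADAM17. Only the length of identical runs was recorded, not their position, so pairing over part of the hairpin was not tested.

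For each gene the reads of all its rows were summed and scaled to the canonical coding length and the library's total, which gives a gene-level RPKM that can be compared between genes. In sh-luc the level was highest for ADAM15 at 12.2 ± 0.856 (SD, n = 3), followed by ADAM9 at 6.23 ± 0.804, ADAM10 at 4.19 ± 0.126, ADAM17 at 3.03 ± 0.337 and ADAM8 at 2.20 ± 0.283 gene-level RPKM. In sh-IUR-5 the order was ADAM9 at 13.8 ± 0.899 (SD, n = 3), ADAM15 at 11.96 ± 0.183, ADAM10 at 9.94 ± 0.530, ADAM17 at 5.18 ± 0.313 and ADAM8 at 2.89 ± 0.544. Neighbours in either order did not overlap between libraries, and ADAM9 and ADAM15 changed places. Of the reads of the 5 genes together, ADAM15 held 45.2% to 46.1% in control libraries and 28.0% to 29.6% after knockdown. ADAM10 held 13.0% to 14.9% of the same total in control libraries and 20.3% to 21.3% after knockdown. That total includes ADAM9, whose rise was known beforehand and which held 20.3% to 24.0% in control libraries and 30.3% to 33.1% after knockdown. The share of ADAM15 therefore depends on the other genes, and its own gene-level RPKM was 12.2 in sh-luc and 11.96 in sh-IUR-5.

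The family has 16 further genes in the table, of which ADAM22, a catalytically inactive member known from synapses, was the highest with a mean of 1.25 RPKM summed over its 24 rows. ADAM11, which is also without protease activity, was next at 0.155 RPKM. ADAM8, the lowest of the 5 genes, had a mean of 2.32 summed RPKM in sh-luc and 3.09 in sh-IUR-5.

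**Figure D1:**
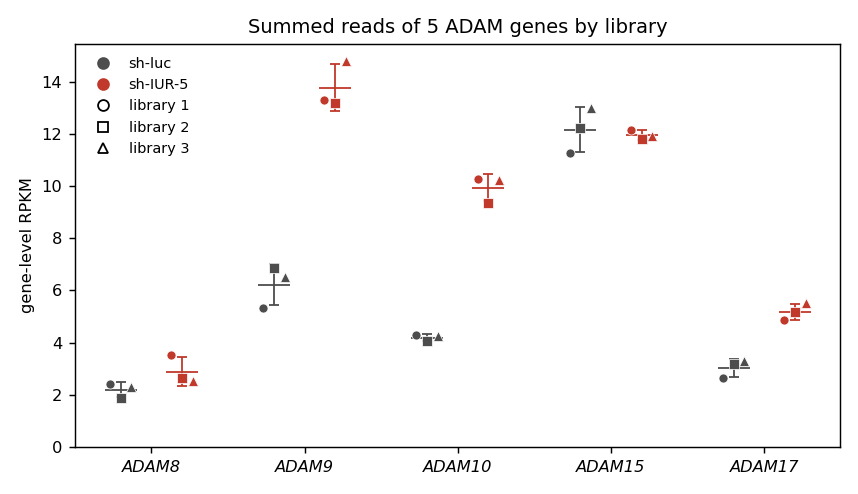
Gene-level RPKM, the summed reads scaled to canonical coding length and library total (y axis), for the 5 ADAM genes (x axis), with one symbol per library, grey for sh-luc and red for sh-IUR-5, and the mean with its SD as a horizontal line and bar (n = 3). ADAM8, ADAM9, ADAM10 and ADAM17 are separate between the groups, with all red symbols above all grey ones. For ADAM8 the margin is narrow (2.41 against 2.53), while the ADAM15 libraries of both groups lie between 11.3 and 13.0. On this scale of total reads the median log2 fold change of all gene sums is 0.21. With that scaling edgeR called 10158 of the 22162 gene sums in either direction. The share of all gene sums that are separate between the groups was not counted.

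Which ADAM rows differed between knockdown and control was tested on the read counts with edgeR's quasi-likelihood test over the 38204 rows with a mean RPKM of at least 1, with p-values adjusted by Benjamini-Hochberg and called below 0.05. Of the 17 ADAM rows 15 entered the test, and the 2 that did not were both of ADAM8. Of the 13 tested rows that do not belong to ADAM9, 3 were called higher in sh-IUR-5, namely both rows of ADAM10 and the row of ADAM17, and 1 was called lower, a row of ADAM15. Over all tested rows 19.3% were called higher and 18.2% lower.

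ADAM10 (ENSG00000137845.15, chr15:58588809-58749791, minus strand, hg38) rose in lncRNA-IUR-5 knockdown cells in both of its rows. The summed reads were 224, 194 and 201 in sh-luc libraries 1, 2 and 3 and 726, 510 and 569 in sh-IUR-5 libraries 1, 2 and 3. As gene-level RPKM these are 4.27, 4.05 and 4.25 against 10.3, 9.33 and 10.2. Every knockdown library was above every control library, and the gap between the groups was larger than the range within either. The sum rose by a log2 fold change of 1.05 (SE 0.0928), a fold of 2.07 with TMM scaling, and passed the test (edgeR adjusted p = 1.22e-06).

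The row NP_001101.1, which encodes full-length ADAM10, is listed at 2247 bases and had 100, 109 and 101 reads in sh-luc and 379, 289 and 305 in sh-IUR-5. Its log2 fold change was 1.16 (SE 0.114, edgeR adjusted p = 2.00e-07). The row NP_001307499.1, listed at 2154 bases, had 124, 85 and 100 reads in sh-luc and 347, 221 and 264 in sh-IUR-5, with a log2 fold change of 0.93 (SE 0.126, edgeR adjusted p = 8.64e-06). The full-length row took 50.4% ± 5.77 (SD, n = 3) of the ADAM10 reads in sh-luc and 54.2% ± 2.28 in sh-IUR-5, and these shares overlapped between the groups. How the authors assigned reads that match both isoforms is not given in the sources used here, so the split between isoforms is less certain than the sum.

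ADAM17 (ENSG00000151694.15, chr2:9488486-9556732, minus strand) also rose, by less than ADAM10. Its single row, NP_003174.3 at 2475 bases, had 153, 167 and 171 reads in sh-luc and 380, 311 and 337 in sh-IUR-5. The gene-level RPKM was 2.65, 3.16 and 3.29 against 4.88, 5.17 and 5.50, with no overlap. The gene sum rose by 0.58 on the log2 scale (SE 0.114, edgeR adjusted p = 0.000944), a fold of 1.49. Over single-gene values the exact two-sided permutation test gave p = 0.1 for both ADAM10 and ADAM17, which is the smallest p that 3 libraries against 3 can give. ADAM8, which edgeR did not call, had the same exact permutation p of 0.1. The values in that test are scaled to total reads, where the median log2 fold change of all gene sums is 0.21.

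ADAM9 (ENSG00000168615.13, chr8:38996754-39105445, plus strand) is described without a test because its rise was known beforehand. Its summed reads were 305, 359 and 337 in sh-luc and 1029, 790 and 901 in sh-IUR-5. The groups did not overlap, and the fitted log2 fold change was 0.95 (SE 0.105), a fold of 1.93. Leaving out one library at a time gave fitted values from 0.85 to 1.03.

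The 2 ADAM9 rows have to be read with their listed length beside them. The row NP_003807.1 is listed at 162 bases, which is 6.58% of the canonical coding length of 2460 bases, whereas XP_011542984.1 is listed at 2406 bases. NP_003807.1 nevertheless carried 1.08 to 1.56 times the reads of the longer row in the 6 libraries. Its deposited RPKM was 45.8, 63.4 and 54.6 in sh-luc and 109.6, 104.3 and 116.7 in sh-IUR-5, which would place ADAM9 far above the other 4 genes. The longer row stood at 2.35, 2.73 and 2.99 RPKM in sh-luc and 6.20, 6.48 and 7.27 in sh-IUR-5.

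With the canonical coding length in place of 162 bases, NP_003807.1 came to 3.02 to 4.17 RPKM in sh-luc and 6.87 to 7.69 in sh-IUR-5, which is 15.2-fold lower than deposited and closer to the longer row, though in sh-luc it lay above all 3 values of that row. The listed length of 162 bases is not the length of any ADAM9 coding sequence in GENCODE release 44, and 5 rows of the table are listed at that length. Of the 17 ADAM rows, 14 are listed at a GENCODE coding length of their gene, the exceptions being both ADAM9 rows and NP_001307499.1 of ADAM10. The length cancels between the groups: the fitted log2 fold changes were 0.82 (SE 0.113) for NP_003807.1 and 1.11 (SE 0.114) for XP_011542984.1.

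**Figure D2:**
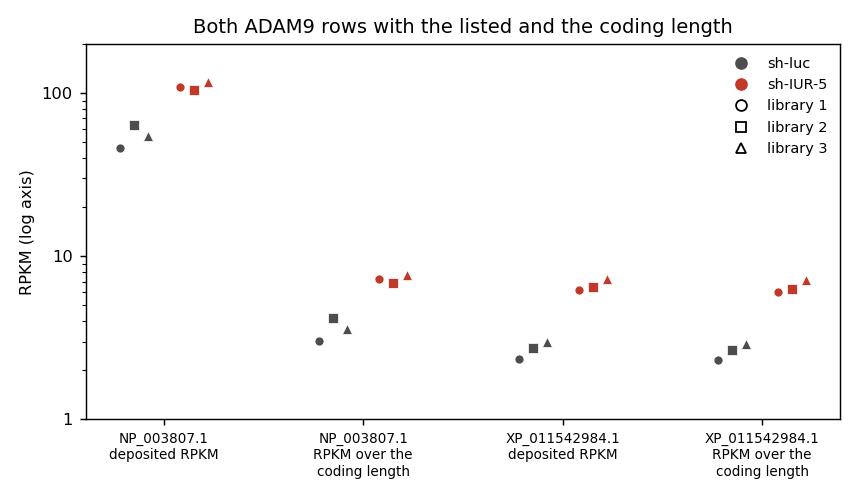
RPKM on a log axis (y) of the 2 ADAM9 rows, as deposited and after division by the canonical coding length of 2460 bases (x), with one symbol per library, grey for sh-luc and red for sh-IUR-5. NP_003807.1 drops from 45.8–116.7 to 3.02–7.69 RPKM, beside 2.35–7.27 for XP_011542984.1 as deposited, and the distance between the groups is kept.

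ADAM15 (ENSG00000143537.14, chr1:155050566-155062775, plus strand) had the most reads of the 5 genes in sh-luc and did not rise. Its 9 rows summed to 682, 675 and 708 reads in sh-luc and 992, 744 and 764 in sh-IUR-5, or 11.3, 12.2 and 13.0 against 12.2, 11.8 and 11.9 gene-level RPKM. The groups overlapped on that scale, and the exact two-sided permutation test gave p = 0.7. With TMM scaling the sum fell by 0.22 on the log2 scale (SE 0.0822, edgeR adjusted p = 0.0417), a fold of 0.858. The direction is relative to the typical gene: with scaling to total reads, where the median of all gene sums lies at 0.21, the ADAM15 value was -0.02 (SE 0.0828, edgeR adjusted p = 0.837).

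The call of ADAM15 as lower was near the threshold and was lost with several other choices, among them DESeq2 (log2 fold change -0.23, DESeq2 adjusted p = 0.0562). It was also lost when any one library other than sh-luc library 1 was left out, with log2 fold changes from -0.18 to -0.23.

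The 9 ADAM15 rows encode isoforms that differ mostly in the cytoplasmic tail and are listed at 1902 to 2592 bases. Each had 42 to 135 reads in a library and a mean of 1.04 to 1.66 RPKM. All 9 had a fitted log2 fold change below 0 with TMM scaling, from -0.47 to -0.05, but with scaling to total reads 4 of the 9 were above 0, over a range of -0.28 to 0.15. The row called lower was NP_997078.1, listed at 2517 bases, with 108, 94 and 77 reads in sh-luc and 103, 88 and 90 in sh-IUR-5 (log2 fold change -0.47, SE 0.146, edgeR adjusted p = 0.0146). Its RPKM was 1.84, 1.75 and 1.46 in sh-luc and 1.30, 1.44 and 1.44 in sh-IUR-5, so the groups were separate by a narrow margin. Its call was lost with scaling to total reads (edgeR adjusted p = 0.131). It was lost without sh-luc library 1 (edgeR adjusted p = 0.0704) and without sh-luc library 2 (edgeR adjusted p = 0.0525). In the other 8 rows the RPKM of the groups overlapped. One of these, NP_997080.1, was called lower in place of NP_997078.1 when sh-luc library 2 was left out (-0.47, edgeR adjusted p = 0.0375). The rows are isoforms of the same gene, so reads can have been split between them, and differences between single rows are uncertain.

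**Figure D3:**
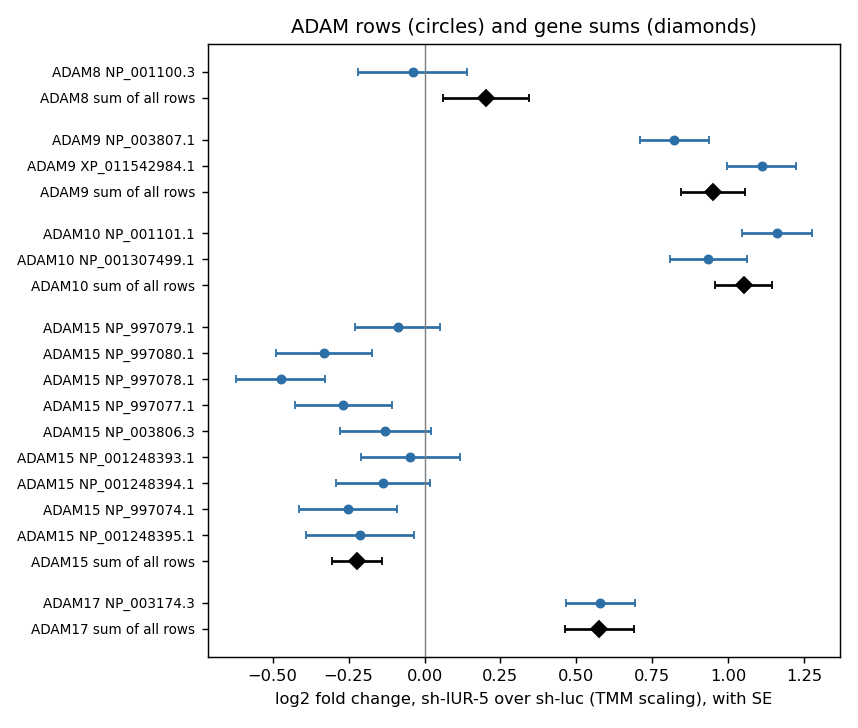
Log2 fold change of sh-IUR-5 over sh-luc with TMM scaling and its SE (x axis) for the 15 tested ADAM rows (circles) and for the sums of all rows of each gene (diamonds). The rows of ADAM9, ADAM10 and ADAM17 lie between 0.58 and 1.16, and the 9 ADAM15 rows between -0.47 and -0.05; with scaling to total reads 4 of those 9 lie above 0.

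ADAM8 (ENSG00000151651.16, chr10:133262420-133276868, minus strand) was the least expressed of the 5 genes and did not pass the test. Its 3 rows summed to 139, 99 and 120 reads in sh-luc and 274, 158 and 155 in sh-IUR-5. The gene-level RPKM was 2.41, 1.88 and 2.31 against 3.52, 2.62 and 2.53, which do not overlap, with sh-IUR-5 library 1 the highest. The log2 fold change was 0.20 (SE 0.142, edgeR adjusted p = 0.273) with TMM scaling and 0.40 (SE 0.153, edgeR adjusted p = 0.0425) with scaling to total reads, where the median of all gene sums is 0.21 higher.

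At this depth the isoforms of ADAM8 had few reads. The row NP_001100.3, at 2475 bases, had 67, 50 and 61 reads in sh-luc and 120, 59 and 67 in sh-IUR-5, with a log2 fold change of -0.04 (SE 0.179, edgeR adjusted p = 0.883). The rows NP_001157961.1 and NP_001157962.1, with means of 0.878 and 0.678 RPKM, were below the minimum level. Their log2 fold changes in a fit of all rows with any read were 0.30 (edgeR adjusted p = 0.329) and 0.45 (edgeR adjusted p = 0.155).

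A ratio of 2 genes within a library does not depend on how libraries are scaled. The reads of ADAM10 per read of ADAM15 were 0.328, 0.287 and 0.284 in sh-luc and 0.732, 0.685 and 0.745 in sh-IUR-5, a difference in mean log2 ratio of 1.27. ADAM10 per read of ADAM17 went from 1.46, 1.16 and 1.18 to 1.91, 1.64 and 1.69, a difference of 0.47, with every knockdown library above every control library. ADAM15 per read of ADAM17 went from 4.46, 4.04 and 4.14 to 2.61, 2.39 and 2.27, a difference of -0.80. ADAM8 per read of ADAM10 went from 0.621, 0.510 and 0.597 to 0.377, 0.310 and 0.272, a difference of -0.86.

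In these 4 pairs the groups did not overlap, and the exact two-sided permutation test gave its smallest possible p of 0.1 (0.15 after Benjamini-Hochberg adjustment over the 6 pairs without ADAM9). How often other pairs of genes separate in this way was not counted. Unlike scaling, trends on base composition need not cancel in such a ratio. The ratios of ADAM8 to ADAM15 (exact permutation p = 0.2) and of ADAM8 to ADAM17 (exact permutation p = 0.3) overlapped between the groups. ADAM9 and ADAM10, described only, kept nearly the same ratio, with 1.36, 1.85 and 1.68 reads of ADAM9 per read of ADAM10 in sh-luc and 1.42, 1.55 and 1.58 in sh-IUR-5.

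Base composition moved with these differences. The coding sequences of ADAM9, ADAM10 and ADAM17 hold 44.5%, 41.6% and 44.6% G and C, and those of ADAM8 and ADAM15 hold 65.8% and 61.8%. When smooth trends of each library on the GC content and length of coding sequences were taken out, over 10272 genes with a symbol and a coding sequence, the log2 fold change of ADAM10 was 0.81 (SE 0.0854, edgeR adjusted p = 4.15e-05). That of ADAM17 was 0.33 (SE 0.107, edgeR adjusted p = 0.0268) and that of ADAM15 was -0.23 (SE 0.0849, edgeR adjusted p = 0.0485). The fitted value of ADAM9 was then 0.70 (SE 0.0902) and that of ADAM8 was 0.22 (SE 0.118, edgeR adjusted p = 0.151). The differences of ADAM9, ADAM10 and ADAM17 were thus smaller with these trends removed, and the calls of ADAM10, ADAM17 and ADAM15 were unchanged.

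**Figure D4:**
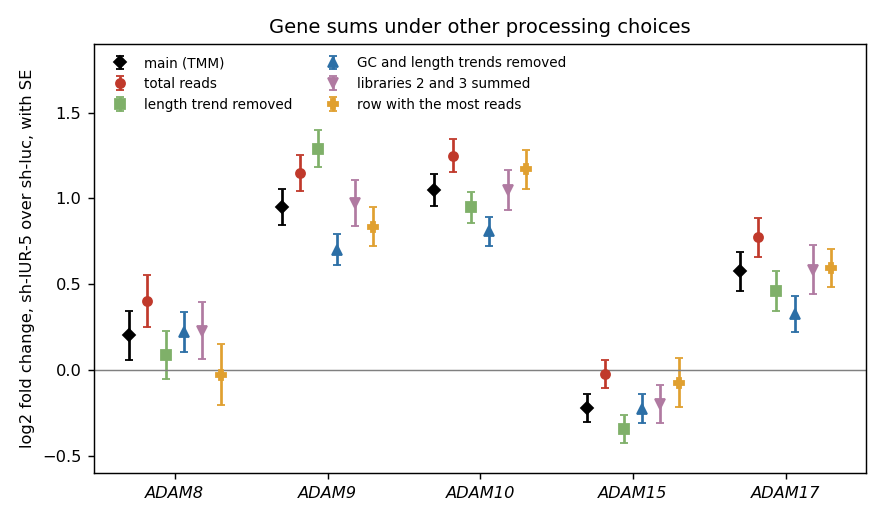
Log2 fold change of sh-IUR-5 over sh-luc with its SE (y axis) of the 5 gene sums (x axis) under 6 ways of processing, each with its own symbol. ADAM10 stays between 0.81 and 1.25 and ADAM17 between 0.33 and 0.77, ADAM15 lies between -0.34 and -0.02, and the length trend places ADAM9 at 1.29 because it uses the listed 162 bases; with total reads the median of all gene sums is 0.21 higher.

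Windows of 250 bases before the RefSeq start (GRCh38.p14) were examined for 4 of the genes. The GC box GGGCGG, on either strand, occurred 3 times for ADAM8, 1 time for ADAM10, 6 times for ADAM15 and 3 times for ADAM17, and 42.6% of all 35116 such windows hold it. The letters TTCNNNGAA, the STAT5 consensus, were in none of the 4 windows and are in 6.57% of all windows. The GC content of the windows was 73.6% for ADAM8, 68.4% for ADAM10, 79.6% for ADAM15 and 75.6% for ADAM17, beside a median of 58.0%.

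The genes around the ADAM proteases were taken from lists of convertases, inhibitors, trafficking factors, tetraspanins, tail-binding proteins, shed proteins, gamma-secretase and other surface and secreted proteases. The lists were chosen with earlier results of these data known, so their counts and adjusted p-values are a description and no independent test. Over these lists and the other ADAM genes, 49 genes had a mean summed RPKM of at least 1, and 19 of them were called higher and 6 lower in sh-IUR-5. Without ADAM22, whose sh-luc mean was below the minimum level, 18 of 48 were called higher. Over all 22162 gene sums tested 20.8% were called higher and 19.8% lower, and the median log2 fold change was 0.01. Only 10392 of these sums are genes with a symbol, whereas all list genes have one. In a fit of the 10272 genes with a coding sequence alone, 4927 were called in either direction, among them 22 genes of the lists.

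Of the convertases that activate ADAM proenzymes, FURIN rose and the other 2 tested genes, PCSK7 and PCSK6, did not pass. FURIN stood at 39.09, 33.20 and 37.51 RPKM in sh-luc and 69.24, 52.24 and 52.55 in sh-IUR-5, without overlap (log2 fold change 0.46, SE 0.0951, edgeR adjusted p = 0.0012). PCSK5 was below the minimum level. The median log2 fold change of the 3 tested convertases was 0.05.

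TIMP1, a secreted inhibitor of metalloproteases that acts on ADAM10, was the one inhibitor above the minimum level. It fell by 0.46 on the log2 scale (SE 0.0756, edgeR adjusted p = 0.000198), from 235, 205 and 210 RPKM in sh-luc to 184, 183 and 175 in sh-IUR-5. The call held, at -0.26, with scaling to total reads and, at -0.25, with the GC and length trends removed. TIMP3, the main physiological inhibitor of ADAM17, had 0 reads, as had TIMP4, and TIMP2 and RECK were at 0.0307 and 0.162 RPKM.

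The ADAM17 trafficking and regulatory list had 9 of its 10 genes tested, of which 3 rose and none fell, with a median log2 fold change of 0.15. DLG1, which encodes a scaffold that binds the ADAM17 tail, rose by 0.65 (SE 0.114, edgeR adjusted p = 0.000346), and was called at 0.40 with the GC and length trends removed. MAPK14, which encodes a kinase that activates ADAM17, rose by 0.58 (SE 0.0811, edgeR adjusted p = 4.98e-05). The iRhom gene RHBDF1, whose product escorts ADAM17 from the endoplasmic reticulum, had a log2 fold change of 0.15 (SE 0.148, edgeR adjusted p = 0.45), and RHBDF2 was at 0.12 RPKM and not tested.

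Among the tetraspanins that escort ADAM10 and steer its substrate choice, 4 of 6 were tested and 1 was called. TSPAN15 fell by 0.92 on the log2 scale (SE 0.123, edgeR adjusted p = 3.11e-05), from 19.1, 15.6 and 14.5 RPKM in sh-luc to 9.45, 10.8 and 9.64 in sh-IUR-5, without overlap. ADAM10 and TSPAN15 thus moved in opposite directions in the same libraries. TSPAN17, the most abundant of the list at a mean of 40.9 RPKM, had a log2 fold change of 0.10 (SE 0.102, edgeR adjusted p = 0.441).

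The list of proteins that bind the tails of ADAM8, ADAM9 and ADAM15 had 10 of 17 genes tested, of which 6 rose and 2 fell, with a median log2 fold change of 0.25. SNX9, an endocytic adaptor, rose by 0.61 (SE 0.0865, edgeR adjusted p = 5.38e-05) and the kinase gene LYN by 0.46 (SE 0.0922, edgeR adjusted p = 0.00093). PACSIN3, another endocytic adaptor, fell by 0.49 (SE 0.0875, edgeR adjusted p = 0.000404). Both LYN (0.31) with the GC and length trends removed and PACSIN3 (-0.29) with scaling to total reads changed less and stayed called. ABL1 rose by 0.62 (SE 0.0773, edgeR adjusted p = 1.74e-05), but in K562 its reads and those of the Bcr-Abl fusion transcript cannot be told apart.

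Of 50 genes for proteins shed by ADAM proteases, 13 were above the minimum level, 6 of them rose and 1 fell, with a median log2 fold change of 0.25. EREG, an EGF receptor ligand released by ADAM17, stood at 2.27, 1.66 and 1.03 RPKM in sh-luc and 4.61, 3.22 and 3.96 in sh-IUR-5 (log2 fold change 1.04, SE 0.256, edgeR adjusted p = 0.00427). PRNP, the prion protein, a substrate of ADAM10, went from 4.744, 5.476 and 4.307 to 12.85, 9.465 and 10.97 RPKM (log2 fold change 1.01, SE 0.143, edgeR adjusted p = 5.35e-05). The values of both genes were separate between the groups.

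IL6R, the interleukin-6 receptor, which ADAM10 and ADAM17 release, was the shed protein that fell. It went from 5.456, 4.826 and 3.997 to 1.822, 2.484 and 3.242 RPKM, without overlap (log2 fold change -1.14, SE 0.197, edgeR adjusted p = 0.000348), and was at -0.72 with limma on log2(RPKM + 1). MICB, an NKG2D ligand, rose by 0.61 (SE 0.109, edgeR adjusted p = 0.000423) while its close paralogue MICA was at -0.26 (SE 0.103, edgeR adjusted p = 0.0569), and reads may be split between these similar genes. The best known substrates NOTCH1 (0.47 RPKM), TNF and APP (both listed at or near 0) were below the minimum level in this table.

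Gamma-secretase, which makes the second cut in Notch and the amyloid precursor protein after an ADAM protease, had all 6 subunit genes tested, of which 2 rose and 1 fell. NCSTN, the substrate receptor, rose by 0.29 (SE 0.0809, edgeR adjusted p = 0.0106). PSENEN, the smallest subunit, fell by 0.48 (SE 0.0829, edgeR adjusted p = 0.000294). With the GC and length trends removed NCSTN (0.14, edgeR adjusted p = 0.112) and PSENEN (-0.13, edgeR adjusted p = 0.136) did not pass.

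Of the other surface and secreted proteases, only the membrane-type metalloprotease MMP15 and the aspartyl protease BACE1 were tested, and neither passed (edgeR adjusted p = 0.889 and 0.0773). The 1 other ADAM gene tested, ADAM22, had 0.779, 1.09 and 0.867 RPKM in sh-luc and 2.11, 1.29 and 1.37 in sh-IUR-5 (log2 fold change 0.62, SE 0.192). It passed the minimum level only through the sh-IUR-5 libraries, where it is high, so its call carries no weight, and with the GC and length trends removed it did not pass (0.35, edgeR adjusted p = 0.195).

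**Figure D5:**
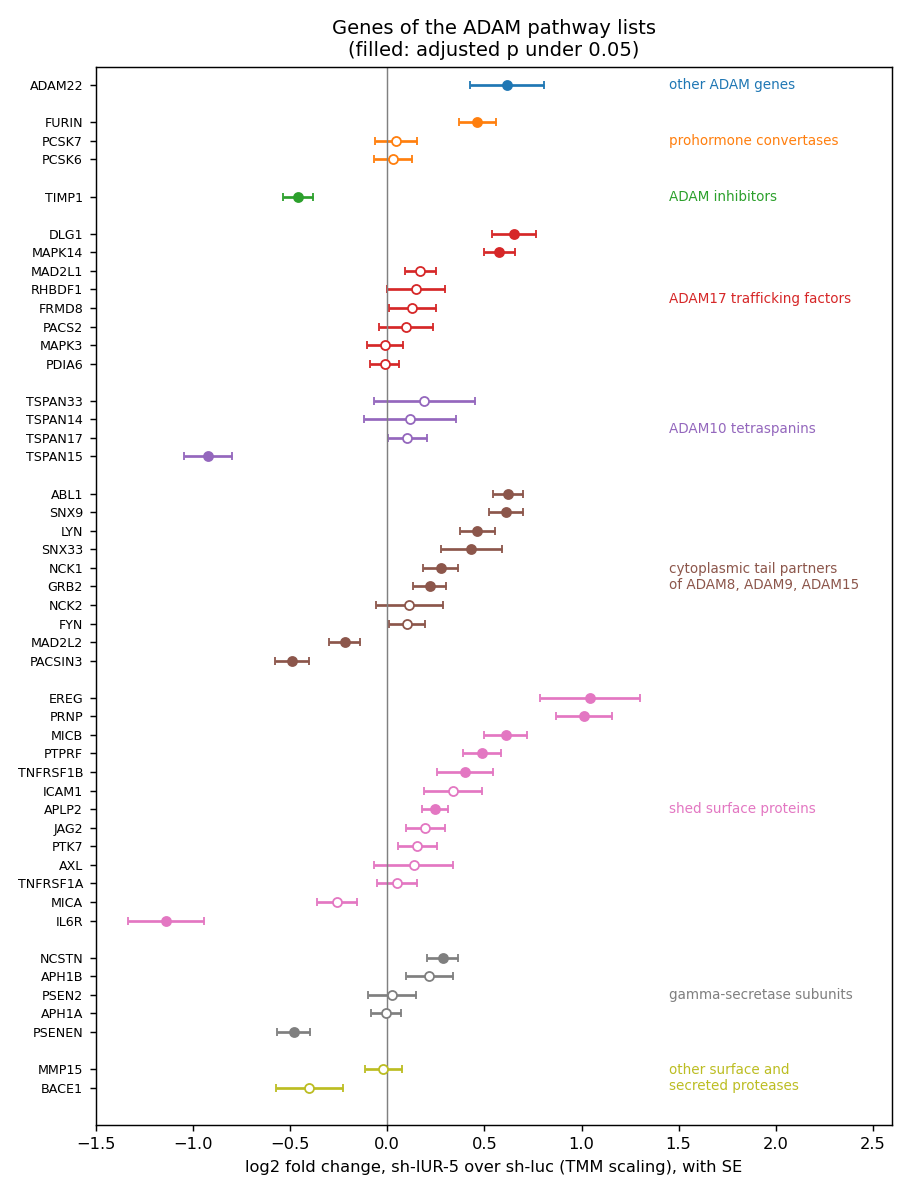
Log2 fold change of sh-IUR-5 over sh-luc with TMM scaling and its SE (x axis) for 47 of the 49 tested genes of the ADAM pathway lists (y axis), coloured by list, with filled circles for an edgeR adjusted p under 0.05. EREG and PRNP lie near 1, TSPAN15 at -0.92 and IL6R at -1.14, and FURIN and TIMP1 at 0.46 and -0.46.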

How the data were processed

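RNA came from 3 groups of K562 cells per hairpin, which the labels' extract protocol describes as independent, and groups and library numbers were taken from the sample titles. The labels of libraries 2 and 3 in each group share a series number, so their independence is not certain. With these 2 libraries summed, ADAM10 was at 1.05 (edgeR adjusted p = 0.000528) and ADAM17 at 0.58 (edgeR adjusted p = 0.0125). Per the submitters' processing notes the tools were CASAVA 1.8, Trimmomatic 0.32, Bowtie2 2.1.0 and SAMtools 0.1.19 on hg38. The authors deposited read counts per RefSeq protein accession and RPKM, the counts divided by the listed length and the library's total. The rule for reads that match several isoforms is not given in the sources used here. A deposited table of the authors' own comparison (fold changes and p-values) was not used. Symbols were matched by accession for 64.7% of rows (69.2% of tested rows). Counts were tested with edgeR 4.0.16 in R 4.3.3 (TMM scaling, quasi-likelihood test, two-sided) on rows with a mean RPKM of at least 1, and on sums per gene by the same minimum. Alternatives used DESeq2 1.42.0, limma 3.58.1 and mgcv 1.9.3, and removal of the GC trend was added after the data were seen. Rows without a symbol stayed in the gene sums as features of their own. Sequences were translated and aligned with Biopython 1.88. A few genes of the lists are counted but not reported here. The ADAM genes and all lists were chosen with earlier results of these data known. Named genes are the ADAM genes, up to 4 called genes with the largest change per list (or, without any, the 2 with the most reads) and the 3 genes most alike to each ADAM gene. PCSK7, PCSK6, RHBDF1, RHBDF2, TSPAN17, MICA and the genes below the minimum level were named after their values were seen. Intervals and tests cover the spread between these 6 libraries.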

Additional observations from a re-analysis of the deposited data

How the results depend on the processing

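No called ADAM gene or row and none of the 25 called genes of the lists changed direction, and ADAM8, which was not called, was at -0.03 with its row with the most reads alone. With scaling to total reads ADAM8 passed (0.40, edgeR adjusted p = 0.0425), ADAM9 was at 1.15 and ADAM15 at -0.024. ADAM15 was no longer called under that scaling, DESeq2 (-0.23, DESeq2 adjusted p = 0.0562), limma on log2(RPKM + 0.1) or log2(RPKM + 1) (-0.021 and -0.020), libraries 2 and 3 of each group summed, since their labels share a series (-0.20), and the row with the most reads alone (-0.075). Leaving out one library gave -0.27 to -0.18, and the call held without sh-luc library 1 and was lost without any other library. For ADAM9 the length trend gave 1.29, with and without the replicate block, because its listed 162 bases were used, and the GC and length trends gave 0.70, with and without the replicate block. The 1 ADAM row called lower became 0 with total reads, with both limma fits and without sh-luc library 1 (0 to 1 over the libraries left out, the 1 being NP_997080.1 without sh-luc library 2), 2 without a minimum level and with the length trend removed, and 3 with that and the replicate block. The deviations of same-numbered libraries from their group means had correlations of 0.31, 0.09 and -0.01 for numbers 1, 2 and 3. Library 1 of both groups thus deviated together to some degree, and whether the numbers pair the libraries is not settled by these values. With the replicate block alone ADAM10 was at 1.05, ADAM17 at 0.58, ADAM15 at -0.22 and ADAM8 at 0.20, and no call changed. The list genes called higher and lower, 19 and 6 as reported, were 28 and 5 with total reads, 26 and 5 with limma and 13 and 5 with libraries 2 and 3 summed. Calls over all 22162 gene sums, in either direction, moved too. They were 9005 as reported, 10158 with total reads, 9750 and 9779 with the limma fits and 6448 with libraries 2 and 3 summed. Of the 202 comparisons of other choices with the reported results, 178 were classed as unchanged. For a tested gene this means the same call, whatever the size of the change and, where it was not called, whatever its sign. For ADAM9 it means a shift smaller than the SD between libraries. For counts of called rows or genes it means a count of similar size, and 28 or 13 beside 19 were classed so. The list genes enter both as all calls and as higher and lower calls, so the comparisons overlap. Depth limits ADAM8, whose rows had 16 to 120 reads in a library, and the ADAM15 rows with 42 to 135.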

Other observations

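For each ADAM gene the genes with the most similar course over the 6 libraries were found by Pearson's r of log2 TMM-scaled counts, as a description with no test, since the points are the same 6 libraries in 2 groups and the best of many genes is close to 1 by selection. ADAM10 was most like SLC9A8, CRKL and GOLM2 (each r = 0.999). CRKL, which encodes an adaptor protein phosphorylated by Bcr-Abl, had a log2 fold change of 0.93. ADAM9 was most like PRKDC, PSMD5 and NUP160 (each r = 0.999), and ADAM17 was most like ERI1, RAD23B (both r = 0.999) and SPTLC1 (r = 0.998). ADAM15 was most like MLEC (r = 0.993), TMEM198 and IFITM2 (both r = 0.992), with log2 fold changes of -0.31, -0.41 and -0.34. ADAM8 was most like PTPN23 (r = 0.996), SIX5 and ZNF512B (both r = 0.991).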
